A study of Rattus norvegicus with 12 samples.

Results

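The genes described here code for the extracellular matrix of rat fat and for the enzymes that cut it. They were chosen by symbol from the array's annotation: the collagens, the laminins, the matrix metalloproteinases (symbols Mmp followed by a number), the tissue inhibitors of metalloproteinases (Timp), the lysyl oxidases (Lox and Loxl), and Fn1, Sparc, Dcn, Lum, Bgn, Nid1, Nid2 and Hspg2. This gave 64 probes of the 22523 on the chip, for 63 of the 13337 genes with a symbol on it, since Loxl1 has 2 probes. No probe with a symbol carried Nid1, Nid2 or Hspg2. RNA had been taken from epididymal adipose tissue, a fat pad that lies against the testis and epididymis, of male Sprague-Dawley rats aged 40 days. From 6 rats food had been removed, with 6 h without food given in the labels. The study's text gives a longer time without food, and its methods an earlier clock time for the removal than the labels. The other 6 rats were fed ad lib. Each rat gave 1 array, and all 12 arrays lay on 1 RatRef-12 BeadChip.

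Fat cells are each wrapped in a thin basement membrane built of collagen IV and laminins, and between the cells runs a looser matrix of fibrillar collagens, collagen VI, fibronectin and small proteoglycans. Lysyl oxidases cross-link the collagen and elastin fibres. Matrix metalloproteinases cut the fibres when the tissue remodels, and Timp proteins block these enzymes by binding to their active site. In a fat pad much of this RNA comes from fibroblast-like cells and endothelial cells rather than from the fat cells themselves.

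The groups are called by their labels, because 2 genes of fuel metabolism ran against the direction given by the study. Angptl4, the inhibitor of lipoprotein lipase, differed by -2.08 between food removed and ad lib arrays (normalized log2 signal, n = 6 each, adjusted p = 0.00111 in limma). Pdk4, a kinase that holds back glucose oxidation, averaged 6.83 ± 0.60 in food removed and 9.78 ± 0.46 in ad lib arrays (SD, n = 6 each, adjusted p = 0.000236 in limma). Every difference below is food removed minus ad lib as labelled, and its sign would turn if the labels were exchanged. Of the fat cell markers, 5 of 5 with a probe were detected on all 12 arrays. The summed level of that list was 15.25 to 15.66 in food removed and 15.35 to 15.85 in ad lib arrays (log2). Of these 5, 1 gene, Lep, which codes for leptin, was higher in food removed arrays (difference 1.55, adjusted p = 0.0255 in limma). Markers of the epididymis itself stood out on 4 arrays. Their summed level was 17.02 in food removed replicate 3, 10.45 in food removed replicate 4, 11.60 in food removed replicate 5 and 11.50 in ad lib replicate 6, against 8.45 to 8.90 on the other 8 arrays. Food removed arrays took chip positions 1 and 3 to 7, and ad lib arrays 2 and 8 to 12, so that position and group nearly coincide and cannot be told apart. The median raw signal was 105 to 139.6 in food removed and 91.1 to 137 in ad lib arrays, and between 51.2 and 59.6% of probes were detected per array.

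A probe was tested where it was detected (detection p under 0.05) on at least 6 arrays. This held for 42 of the 64 matrix and protease probes, and 36 of those were detected on all 12 arrays. None of the 42 passed an adjusted p under 0.05 in limma in either direction, with a background of 2.47% over all 12196 probes tested (301 probes). Upwards the count was 0 of 42 against 1.05%, and downwards 0 of 42 against 1.42%. With no filter on dim probes it was 0 of 64 against 1.13%, with 6 of the 64 at an unadjusted p under 0.05. At an unadjusted p under 0.05 there were 3 of the 42 (7.14%), namely Timp2, the second Loxl1 probe and Mmp28, against 15.9% of all tested probes. In no tested member did the groups separate without overlap, whereas they did in 2.50% of all tested probes. The methods' t-test also passed 0 of 42 after adjustment, against 1.89% of all tested probes, with 4 at an unadjusted p under 0.05. When each array was weighted by its quality, 1 of 42 passed, Timp2, against 6.89% of all tested probes. In whole tissue, fewer cells of a type and less RNA per cell cannot be told apart.

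The differences were small on either side of 0. Of the 42 tested probes 19 had a positive and 23 a negative difference, from -0.45 to 0.46 on the log2 scale, with a median of -0.01 against -0.02 over all tested probes. The median size of the difference was 0.11, against 0.16 over all tested probes, and 9.90% of all tested probes lay beyond the range of the members. The spread within the groups was like that of other probes, with a median SD of 0.26 against 0.27. A limma 95% interval inside 2-fold in both directions was found for 42 of 42 members and for 91.8% of all tested probes. Inside 1.5-fold the share was 25 of 42 members (59.5%), against 63.8%.

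**Figure D1:**
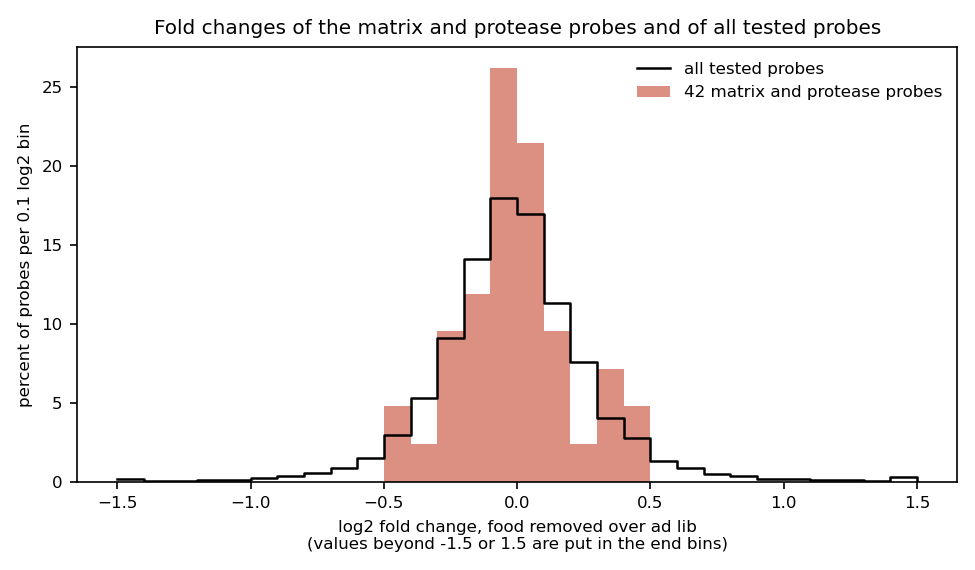
Log2 fold changes, food removed over ad lib, on the horizontal axis, with the percent of probes in each bin of 0.1 on the vertical axis. Filled bars are the 42 tested matrix and protease probes and the black line is all 12196 tested probes; the members lie between -0.45 and 0.46.

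Collagens of the fibrils gave no separation of the groups. They had 7 of 9 probes tested, with a median difference of -0.01 and a range of -0.23 to 0.19. Col1a1, which codes for the main chain of type I collagen, had 12.88, 13.18 and 13.75 in food removed and 12.38, 13.01 and 13.59 in ad lib arrays (lowest, median and highest normalized log2 signal). Its ad lib arrays spread the most of the 7, with the lowest value in replicate 2 and the highest in replicate 6, and the food removed values fell almost wholly inside that span. The difference was 0.19 (SE 0.22, 95% interval -0.27 to 0.66, adjusted p = 0.734 in limma). It was 0.06 without ad lib replicate 2 and 0.31 without ad lib replicate 6.

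Col1a2, the second chain of type I collagen, had 14.64, 14.75 and 14.82 in food removed and 14.61, 14.77 and 14.90 in ad lib arrays. Its raw signal of 26434.6 to 31776.0 lay near the top of the scale, since the brightest probe of each array read 27423.9 to 37877.9, so a difference may be compressed there. Col3a1, the type III collagen of soft tissues, had 13.97, 14.27 and 14.39 in food removed and 13.88, 14.22 and 14.47 in ad lib arrays. Both genes overlapped across nearly their whole range, with differences of -0.03 (SE 0.09) for Col1a2 and 0.03 (SE 0.12) for Col3a1. Type V collagen, which sets the thickness of type I fibrils, gave differences of 0.07 (SE 0.15) for Col5a1, -0.11 (SE 0.13) for Col5a2 and -0.23 (SE 0.18) for Col5a3. Col5a3 was lowest in food removed replicate 3, and its difference without that array was -0.09.

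No tested basement membrane gene passed. No probe carried the symbol Col4a2, Lama4 or Lamb1, so these chains were not measured. Col4a1, a chain of the collagen IV found in every basement membrane, had 12.79, 13.43 and 13.50 in food removed and 13.13, 13.40 and 13.70 in ad lib arrays. The groups overlapped, and 5 of the food removed arrays lay between 13.32 and 13.50 while replicate 3 lay below all other arrays. The difference of -0.07 (SE 0.14, adjusted p = 0.869 in limma) was 0.04 without that array. Col4a3, a chain of more restricted basement membranes, had 5.81, 6.46 and 6.95 in food removed and 5.68, 6.19 and 6.42 in ad lib arrays, with a difference of 0.33 (SE 0.21). Its 3 highest values were those of food removed replicates 3, 4 and 5, which are also the 3 food removed arrays with epididymis markers, and without the 4 arrays that carry such markers its difference was -0.02. Without background correction it was 0.16. The part of those markers in it was not tested further.

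All 3 tested laminin chains had a negative difference, of a size within their error. Lamb2 gave -0.07 (SE 0.13), Lamc1, the gamma chain shared by most laminins, -0.08 (SE 0.34), and the dim Lamb3, a chain of epithelial laminin, -0.16 (SE 0.13). Lamc1 was the least even of the 3, with 7.84, 8.53 and 9.13 in food removed and 7.71, 8.47 and 10.11 in ad lib arrays. Its highest value was that of ad lib replicate 4 and its lowest that of ad lib replicate 6, so the ad lib arrays enclosed all food removed arrays. Lama1 and Lamc3 were detected on no array.

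Collagen VI, the microfibril collagen that is abundant around fat cells, was measured by Col6a1 and, near background, by Col6a2. No probe carried the symbol Col6a3, so that chain was not measured. Col6a1 had 12.96, 13.05 and 13.17 in food removed and 12.73, 13.19 and 13.41 in ad lib arrays. The 6 food removed arrays were close together and lay inside the ad lib range, with a difference of -0.11 (SE 0.12, 95% interval -0.35 to 0.14, adjusted p = 0.716 in limma). Col6a2 differed by 0.16 (SE 0.15) and was detected on 8 of 12 arrays.

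Among the other collagens, Col14a1, which binds to the surface of fibrils, had the smallest p. It had 12.83, 13.09 and 13.20 in food removed and 13.08, 13.23 and 13.42 in ad lib arrays. Food removed replicates 3, 4 and 6 lay below every ad lib array, and the other 3 food removed arrays lay among the ad lib arrays. The difference was -0.20 (SE 0.11, adjusted p = 0.381 and unadjusted p = 0.0803 in limma). An exact permutation test over the 924 assignments of the arrays gave an unadjusted two-sided p of 0.0455. Col15a1, a collagen of the basement membrane zone, differed by -0.06 (SE 0.14).

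Col18a1, the related collagen from which endostatin is cut, had 10.24, 10.31 and 11.51 in food removed and 9.87, 10.23 and 10.42 in ad lib arrays. The value of 11.51 was that of food removed replicate 3, and the other 5 food removed arrays lay at 10.24 to 10.44, close to the ad lib arrays. The difference of 0.31 (SE 0.20, adjusted p = 0.489 in limma) was 0.11 without this array. Col7a1, the collagen of anchoring fibrils beneath epithelia, had its highest value, 7.55, in the same array, and its difference of 0.02 was -0.18 without it. That array also had the highest level of epididymis markers, whose part in these values was not tested. Col17a1, a transmembrane collagen of epithelia, was the most uneven member, with an SD of 0.81 within the groups and a difference of -0.01 (SE 0.40).

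**Figure D2:**
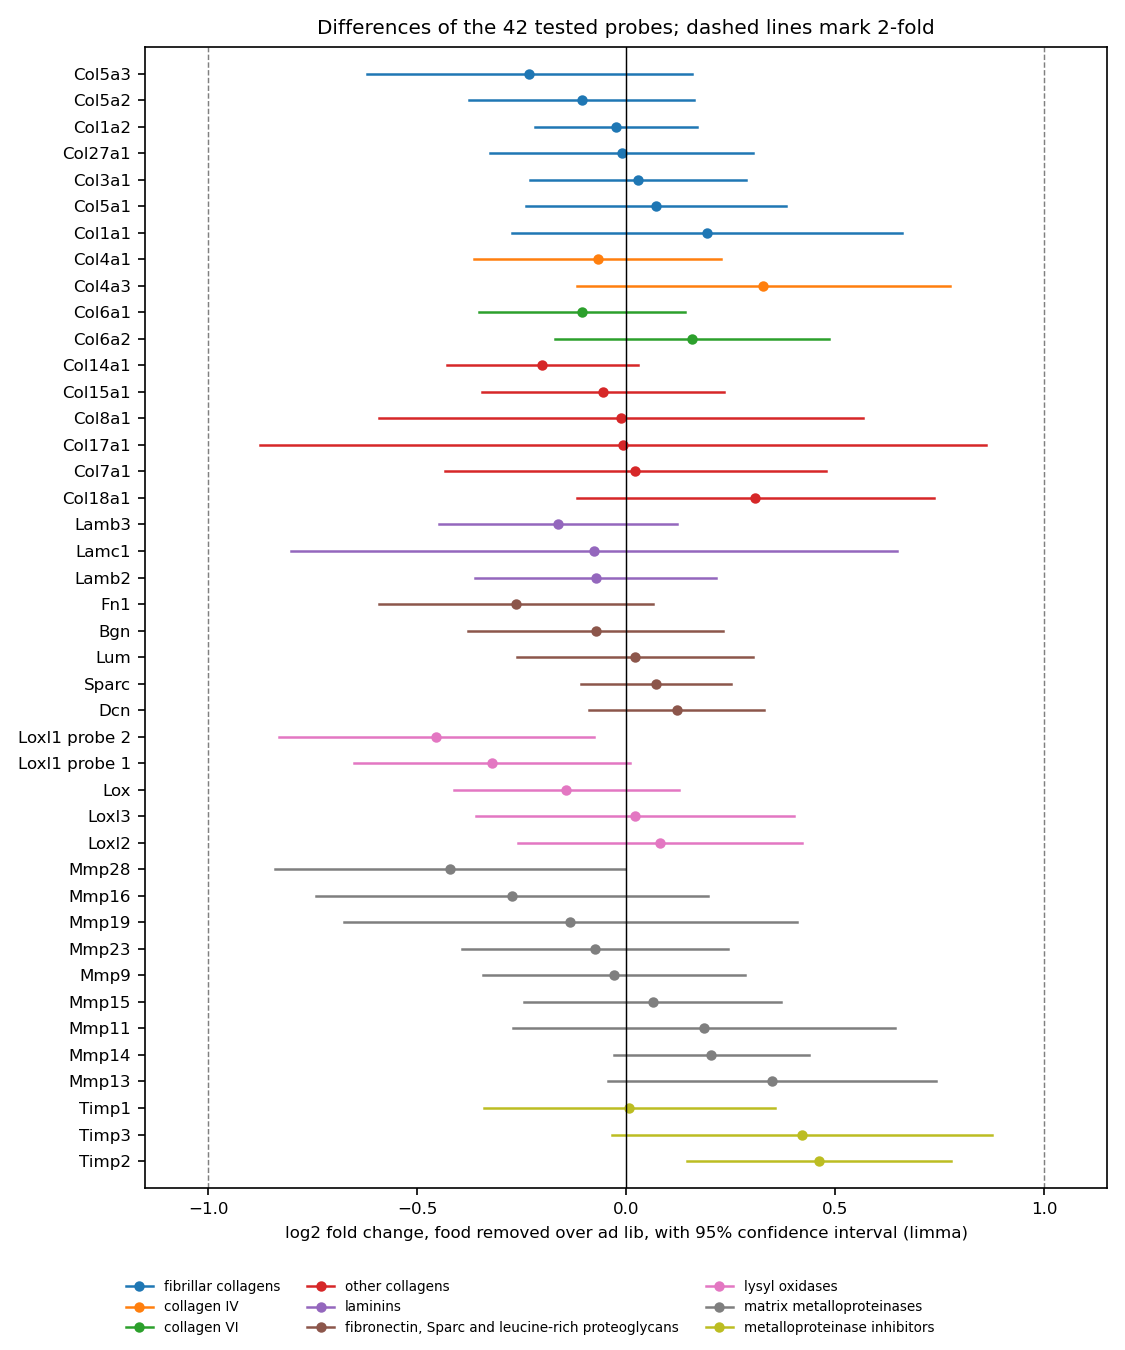
Difference of each of the 42 tested probes (point) with its 95% confidence interval from limma (line), in log2 units on the horizontal axis, food removed minus ad lib, with the genes by role on the vertical axis. All 42 intervals lie inside the dashed 2-fold lines, and 3 do not cross 0: Timp2 above it, and the second Loxl1 probe and Mmp28 below it.

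Fibronectin and the matrix proteins that bind collagen were detected on all 12 arrays, 5 probes of 5. Fn1, the glycoprotein that links cells to collagen, had 12.40, 12.79 and 13.19 in food removed and 12.63, 13.12 and 13.36 in ad lib arrays. Of the food removed arrays 4 lay below 5 of the ad lib arrays, and replicate 3 lay lowest of all 12. The difference was -0.26 (SE 0.15, 95% interval -0.59 to 0.06, adjusted p = 0.432 in limma), or -0.18 without food removed replicate 3 and -0.09 without the 4 arrays with epididymis markers.

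Sparc, a collagen-binding protein secreted in quantity by fat tissue, was the steadiest member, with an SD of 0.06 within the groups. It had 14.64, 14.66 and 14.71 in food removed and 14.49, 14.59 and 14.74 in ad lib arrays. Its highest and its lowest value were both in ad lib arrays, replicates 6 and 4, and the difference was 0.07 (SE 0.08). Its raw signal reached 29223.4, near the top of the scale. Decorin (Dcn), biglycan (Bgn) and lumican (Lum), small proteoglycans that coat collagen fibrils, gave differences of 0.12 (SE 0.10), -0.07 (SE 0.14) and 0.02 (SE 0.13). The raw signal of Dcn reached 28292.5, also near the top of the scale. Bgn was lowest in food removed replicate 3, at 7.79, and without that array its difference was 0.05.

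Lysyl oxidases had 5 of 6 probes tested, with a median difference of -0.14. Loxl1, which is needed to build elastic fibres, had the largest negative difference of all members. Its second probe had 9.69, 10.27 and 10.73 in food removed and 10.17, 10.79 and 11.10 in ad lib arrays. Most food removed arrays lay below most ad lib arrays, except for food removed replicate 1, which was high, and ad lib replicate 2, which was low. The difference was -0.45 (SE 0.18, 95% interval -0.83 to -0.08), a signal ratio of 0.730, with an adjusted p of 0.213 in limma and an unadjusted p of 0.0455 in the exact permutation test.

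The first Loxl1 probe had 10.05, 10.50 and 10.80 in food removed and 10.27, 10.82 and 11.08 in ad lib arrays. It showed the same 2 exceptions, food removed replicate 1 and ad lib replicate 2, and the lowest value was again in food removed replicate 3. Its difference was -0.32 (SE 0.15, adjusted p = 0.326 in limma), with an unadjusted p of 0.0671 in the exact permutation test. Without food removed replicate 3 the differences were -0.34 for the second probe and -0.24 for the first, and without the 4 arrays with epididymis markers they were -0.19 and -0.14.

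Lox, the enzyme that cross-links collagen and elastin, had 12.04, 12.15 and 12.37 in food removed and 12.03, 12.38 and 12.70 in ad lib arrays. The lowest of the 12 arrays was ad lib replicate 2, so the groups overlapped from the bottom up. The difference was -0.14 (SE 0.13, adjusted p = 0.637 in limma). Loxl2 and Loxl3 gave 0.08 (SE 0.16) and 0.02 (SE 0.18).

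Loxl4, a further enzyme of the family, was the only one of the 64 probes whose groups did not overlap (1.56%, against 1.45% of all probes on the chip). It was detected on 2 of 12 arrays, both food removed, and was therefore not among the tested probes. It had 5.01, 5.06 and 5.49 in food removed and 4.57, 4.74 and 4.94 in ad lib arrays. All of these values lie near background, and the difference was 0.39 with an adjusted p of 0.101 in limma over all 22523 probes. Groups of 6 against 6 arrays that do not overlap always give an exact permutation p of 0.00216, the smallest possible. For Loxl4 this p therefore only restates the separation by which the probe was picked, and it is not adjusted for the number of probes.

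**Figure D3:**
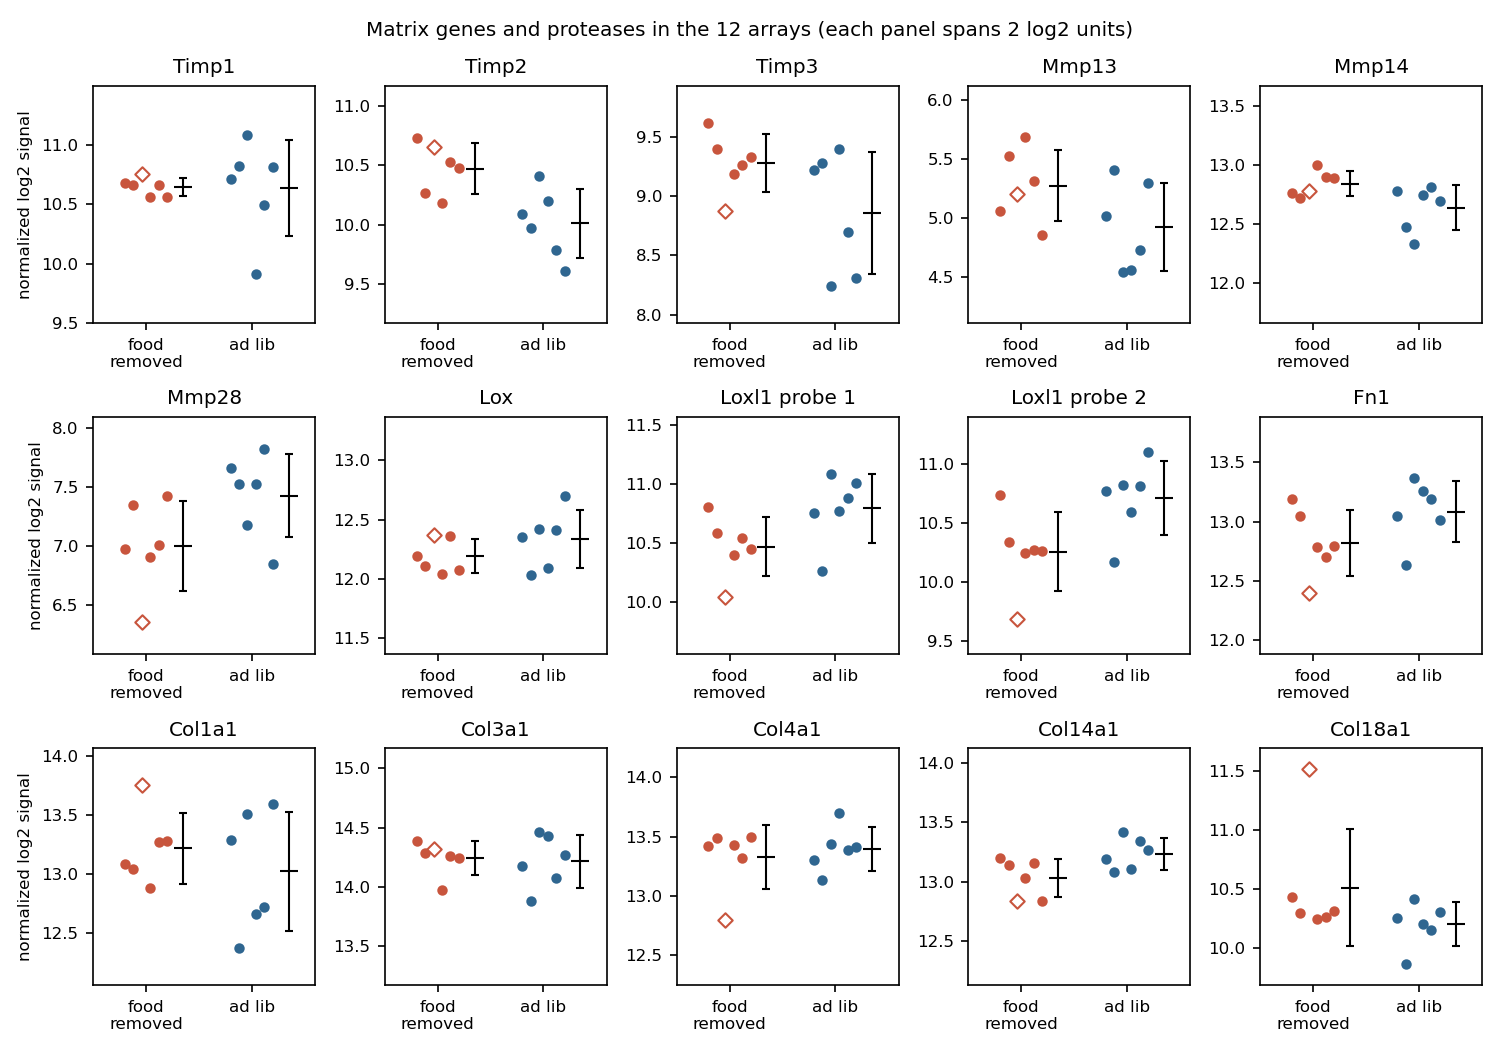
Normalized log2 signal of 15 matrix and protease probes on each array, food removed (red) left of ad lib (blue), with the group mean and SD as a black bar (n = 6 each); every panel spans 2 log2 units. The open diamond is food removed replicate 3, which lies apart at 11.51 for Col18a1 and at 12.79 for Col4a1; the groups overlap in every panel.

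Probes of matrix metalloproteinases were mostly at or below the limit of detection, with 9 of 20 tested and 8 detected on no array. A dim signal from a single probe does not by itself show that the RNA of the gene is low. Of those measured, 4 had a positive and 5 a negative difference, with a median of -0.03. Mmp14, the membrane-bound collagenase that also activates Mmp2, was detected on all 12 arrays. It had 12.72, 12.83 and 13.00 in food removed and 12.33, 12.72 and 12.81 in ad lib arrays. Food removed replicates 4, 5 and 6 lay above every ad lib array, and ad lib replicates 2, 3 and 6 lay below every food removed array. The difference was 0.20 (SE 0.11, 95% interval -0.03 to 0.44, adjusted p = 0.386 in limma). The unadjusted p was 0.0825 in limma and 0.0411 in the exact permutation test.

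Mmp28, a secreted protease also called epilysin, had 6.36, 6.99 and 7.42 in food removed and 6.85, 7.52 and 7.82 in ad lib arrays. Ad lib replicate 6 lay in the lower part of the food removed range, while food removed replicate 3 lay below all others. The difference was -0.42 (SE 0.20, 95% interval -0.84 to -0.0032, adjusted p = 0.311 in limma), with an unadjusted p of 0.0714 in the exact permutation test. It was -0.29 without food removed replicate 3 and -0.25 without background correction. Mmp13, the main collagenase of rodents for fibrils, had 4.86, 5.26 and 5.68 in food removed and 4.55, 4.88 and 5.40 in ad lib arrays. It was detected on 4 food removed and 2 ad lib arrays, so its difference of 0.35 (SE 0.18, adjusted p = 0.375 in limma) compares signals near background, and without background correction it was 0.13.

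Mmp9, a gelatinase, had 5.88, 6.18 and 6.46 in food removed and 5.88, 6.09 and 6.71 in ad lib arrays, and its difference was -0.03 (SE 0.15). The other 5 tested proteases gave differences of -0.27 (SE 0.22) for Mmp16, -0.13 (SE 0.25) for Mmp19, -0.07 (SE 0.15) for Mmp23, 0.06 (SE 0.14) for Mmp15 and 0.19 (SE 0.21) for Mmp11. The groups overlapped in each. Mmp2, the other gelatinase, was detected on 1 food removed and 1 ad lib array, with signals of 4.63 to 5.30 in food removed and 4.61 to 5.20 in ad lib arrays. Mmp12, the elastase of macrophages, was detected on 1 array, food removed replicate 3, and Mmp3, a stromelysin, on none. Nothing can be said here of a change in these 3 proteases beyond that their signals were near background in both groups.

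Timps gave the largest positive differences among the members, and all 3 probes of the group were tested. Timp2, which blocks metalloproteinases and also takes part in activating Mmp2 at the cell surface, had 10.18, 10.50 and 10.73 in food removed and 9.61, 10.03 and 10.41 in ad lib arrays. Of the food removed arrays 4 lay above every ad lib array, and ad lib replicates 3 and 4 reached into the range of the food removed arrays. The difference was 0.46 (SE 0.15, 95% interval 0.15 to 0.78), a signal ratio of 1.38, and the unadjusted exact permutation p was 0.0130. Over all tested probes the adjusted p was 0.125 in limma, the smallest of the 42 members. Across the alternatives run, the difference was 0.33 to 0.54 and the adjusted p 0.0421 to 0.687, with only the fit with array weights under 0.05 (difference 0.46).

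Timp3, the inhibitor that stays bound to the matrix, had 8.87, 9.30 and 9.61 in food removed and 8.24, 8.96 and 9.40 in ad lib arrays. The ad lib arrays fell apart, with replicates 3, 5 and 6 below every food removed array and replicates 1, 2 and 4 among the food removed arrays. The difference was 0.42 (SE 0.21, 95% interval -0.03 to 0.87, adjusted p = 0.356 in limma). Timp1 had 10.56, 10.66 and 10.76 in food removed and 9.91, 10.76 and 11.08 in ad lib arrays. The 6 food removed arrays lay within the ad lib range, and the difference was 0.01 (SE 0.16). No probe carried the symbol Timp4.

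Seen by array rather than by gene, 3 arrays stood out. Food removed replicate 3 held the lowest value of the 12 arrays for 15 of the 42 members (35.7%), against 24.4% of all tested probes. It held the highest for 4 members (9.52%), among them Col18a1 and Col7a1, against 11.5% of all tested probes. Its summed marker levels were also the lowest of the 12 arrays for endothelial cells, at 12.82, for macrophages, at 12.79, for neutrophils, at 10.45, and for fat cells, at 15.25. The neutrophil sum rests mainly on Mpo, which averaged 11.44 in food removed and 11.87 in ad lib arrays. S100a8 averaged 6.02 and 5.65 in the same order, and S100a9, Ngp and Elane were detected on no array. Other lists went differently. For mesothelial markers food removed replicate 3 was the highest of the 12 arrays, at 13.56. That list had a probe for 4 of 7 genes, which differed in sign between the groups. Krt8 gave 0.43 (SE 0.59), Krt19 0.65 (SE 0.50), Msln -0.48 (SE 0.31) and Wt1 -0.12 (SE 0.29). The same array had the highest level of epididymis markers, whose part in this sum was not tested. For smooth muscle markers food removed replicate 3 was the highest food removed array, at 12.19, with ad lib arrays reaching 12.20. For fibroblast markers it lay inside the range of the other arrays, at 14.23. Ad lib replicate 3 held the highest value for 14 of the 42 members (33.3%), against 12.8% of all tested probes, among them Col3a1, Col6a1 and Fn1. Ad lib replicate 2 held the lowest for 7 members (16.7%), against 7.40%, and the highest for none, against 8.96%. Food removed replicate 2 also held the highest for none, against 6.01%.

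**Figure D4:**
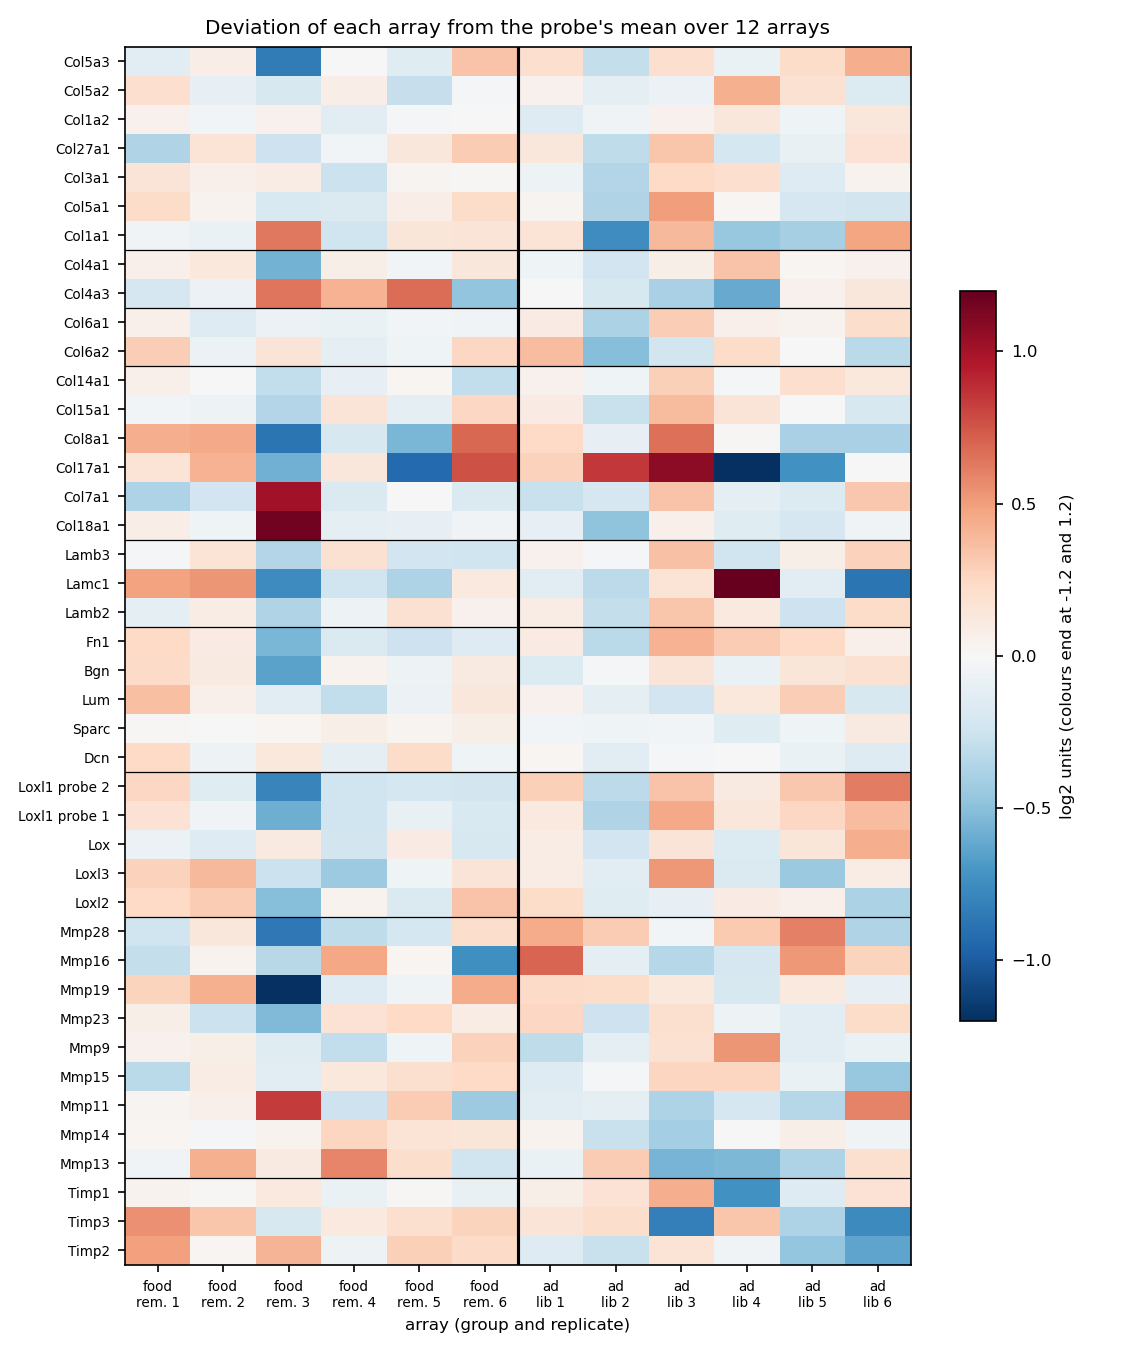
Deviation of each array (columns, food removed left of the black line and ad lib right of it) from the mean of the probe over 12 arrays, in log2 units, for the 42 tested probes (rows, grouped by role). Food removed replicate 3 is lowest for 15 members and ad lib replicate 3 is highest for 14, and no role has a colour that fills 1 side only.

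Marker genes of other cells were read beside these results. Endothelial markers summed to 12.82 to 13.83 in food removed and 13.61 to 14.01 in ad lib arrays, with a median difference of -0.37 over 7 tested genes. Of these 1, the tight junction gene Cldn5, was lower (-0.88, adjusted p = 0.0482 in limma), against 2.47% of all tested probes passing. At an unadjusted p under 0.05 in limma there were 4 of the 7, against 15.9% of all tested probes. These were Cldn5, Tek (-0.57), Vwf (-0.76) and Esam (-0.33), and Emcn alone had a positive difference (0.17). Macrophage markers summed to 12.79 to 13.69 in food removed and 13.36 to 13.88 in ad lib arrays. Of these genes 0 of 7 passed and 1 was at an unadjusted p under 0.05. The fibroblast list, from cells that make much of the matrix, summed to 14.10 to 14.57 in food removed and 14.17 to 14.70 in ad lib arrays. Here 0 of 7 genes passed and 2 were at an unadjusted p under 0.05, against the same 2.47% and 15.9% of all tested probes. The part of these cells in the members' values was not tested.

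The error of reading the beads was a small share of the spread between arrays for most members. Each rat gave 1 array, so that differences between rats and those between RNA preparations or hybridizations cannot be told apart. A probe was read from a median of 43 beads per array (22 to 101 over the members). The error of that mean came to a median of 5.92% of the variance between arrays of a group for the 42 members, against 10.31% for all tested probes. For the 29 members with a mean log2 signal over 8 it was 4.30%, and for the 13 dimmer ones 17.02%. Lamc1 lay at one end, where bead error was 0.95% of the variance between arrays, and Lamb3 at the other, where it was 115.71%, so the differences between arrays for Lamb3 were no larger than the error of reading 1 array. Mmp13, at 61.11%, was also read with little to spare.

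**Figure D5:**
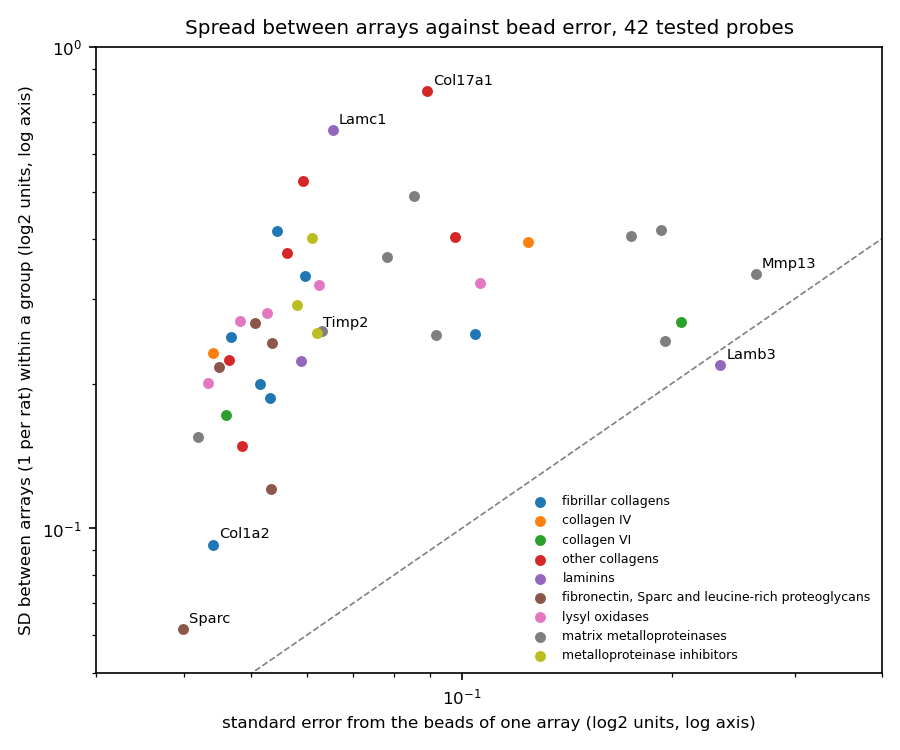
Standard error from the beads of 1 array (horizontal axis) against the SD between arrays (1 per rat) within a group (vertical axis), both in log2 units on log axes, for the 42 tested probes coloured by role; on the dashed line both are equal. Only Lamb3 lies below the line, while Lamc1 and Col17a1 vary most between arrays.

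No tested gene passed in the neighbouring pathways of the matrix. In limma 0 of 20 tested genes of collagen processing, 0 of 34 other matrix glycoproteins and proteoglycans, 0 of 22 other matrix proteases and inhibitors, 0 of 11 genes of TGF-beta signalling and 0 of 17 matrix receptors passed an adjusted p under 0.05, against 2.47% of all tested probes. At an unadjusted p under 0.05 there were 2, 3, 6, 2 and 3 genes in the same order, against 15.9% of all tested probes. Their median differences were -0.08, -0.07, -0.07, 0.12 and -0.02, against -0.02 over all tested probes. Single genes, named after their values were seen, had larger differences than any member. Adamts5 gave 0.58, Adamts7 -0.69 and Adamts9 -0.66 (adjusted p = 0.081, 0.079 and 0.073 in limma). Ltbp2 gave -0.72 and Tgfb1 0.58 (adjusted p = 0.058 and 0.088 in limma).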

How the data were processed

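The authors deposited a table of raw signal intensity per probe with a detection p-value, a bead standard error and a bead number, and a table of normalized intensity. Both come from Illumina's BeadStudio software, and the second was normalized by the authors with its cubic spline. Bead standard errors, on the intensity scale, and bead numbers were deposited as the software wrote them. Raw signals went through neqc, which corrects background, quantile-normalizes and takes log2 (R 4.3.3 with limma 3.58.1; the offset was 16 and detection p-values served to estimate the negative controls). Probes detected at p under 0.05 on at least 6 of 12 arrays were compared by limma's moderated two-sided test (lmFit, eBayes), and p-values were adjusted over all 12196 by the Benjamini-Hochberg method. A larger offset shrinks differences of dim probes, and background correction widens them. Single probes were also compared by an exact permutation test. The share of all tested probes under 0.05 in it was not computed, so its p-values have no background here. For other members with a small limma p, the exact permutation test gave an unadjusted p of 0.106 for Timp3, 0.108 for Mmp13 and 0.123 for Fn1. It gave 0.128 for Col18a1, 0.180 for Col4a3 and 0.277 for Col5a3. The number of arrays limits the precision.

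The members, gene lists and tests were chosen with earlier results of these data known. All 64 probes were found in the rat gene table and 0 symbols changed. Named genes are the 12 members with the smallest p, the 3 largest differences each way, and 36 genes fixed by role, of which 28 have a probe. Other members, such as Loxl4, Col17a1 and those with a single array apart, were named after their values were seen. The fit was also run without background correction, with a median shift, on the authors' normalized intensities, with an offset of 50 and with other filters. Further runs used array weights, a robust variance trend, a replicate block, chip position, an unpaired t-test, and the arrays without single ones.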

Additional observations from a re-analysis of the deposited data

Results flagged for a closer look

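Within each group of 6 arrays, the highest or lowest value was set against its distance from the nearest other value. Of 128 groups checked, 12 (9.38%) had such a value beyond Dixon's 95% critical value, 5 of them for probes too dim to be tested. That limit gives about 1 in 20 for independent, normally distributed values, but these probes share the same 12 arrays. The share over all probes on the chip was not computed, so the count has no background here. Food removed replicate 3 accounted for 8 of the 12, and it also held the lowest value for 24.4% and the highest for 11.5% of all tested probes. It was apart on the low side for Col4a1 (12.79, the others 13.32 to 13.50), Bgn (7.79, the others 8.37 to 8.65) and Mmp19 (6.68, the others 7.86 to 8.47). On the high side it was apart for Col18a1 (11.51, the others 10.24 to 10.44), Col7a1 (7.55, the others 6.18 to 6.55) and, among probes too dim to be tested, Col13a1 (7.01, the others 4.53 to 4.89), Mmp12 (5.52, the others 4.49 to 4.63) and Mmp3 (4.40, the others 4.29 to 4.32). The other 4 values were those of Col3a1 in food removed replicate 4 (13.97, the others 14.24 to 14.39), Mmp11 in ad lib replicate 6 (6.01, the others 5.04 to 5.31), Col13a1 in ad lib replicate 6 (5.35, the others 4.68 to 4.79) and Mmp1 in ad lib replicate 4 (5.07, the others 4.47 to 4.67). Food removed replicate 3 and ad lib replicate 6, the only arrays with Col13a1 apart, are among the 4 arrays with epididymis markers. Food removed replicates 4 and 5, which also carry such markers, had Col13a1 at 4.89 and 4.79 and were not apart. What part these markers have was not tested.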

How the results depend on the processing

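No member passed in the fit reported or in any alternative run except array weights, where 1 did. The median difference of the members was -0.08 to 0.04 when single arrays were left out, 0.07 with array weights and 0.08 without the 4 arrays with epididymis markers. Over all probes the count of 301 became 103 with a median shift, 840 with array weights, 178 with a replicate block, 32 with chip position as a covariate, and 157 to 483 when single arrays were left out. The cause was not tested. Replicate numbers do not pair the arrays: r between same-numbered arrays was -0.41 to 0.13 over 6 pairs, 2 of them over 0.1, and 0 food removed arrays correlated best with their own number, and the block passed 0 members. Leaving out the 4 arrays with epididymis markers was chosen after the data were seen. Of 30 named and tested members, 17 kept their sign under every alternative that gave a value and 13 turned it. With array weights Bgn was at 0.063, Col15a1 0.011, Col1a2 0.029, Col4a1 0.078, Lamb2 0.046, Lamc1 0.24, Mmp9 0.17 and Timp1 -0.033. With chip position Bgn was at 0.0051, Col1a2 0.039, Col4a1 0.0014, Col6a2 -0.013, Lum -0.046, Mmp9 0.098 and Timp1 -0.073. Without the 4 arrays Bgn was at 0.14, Col1a2 0.018, Col4a1 0.079, Col4a3 -0.022, Col5a3 0.043, Lamb2 0.0072, Lamc1 0.16 and Mmp9 0.10. With a median shift Col1a2 was at 0.011, Mmp9 0.026 and Timp1 -0.040. Leaving out single arrays gave -0.12 to 0.048 for Bgn, -0.11 to 0.014 for Col15a1, -0.039 to 0.083 for Col3a1, -0.12 to 0.038 for Col4a1, -0.26 to 0.22 for Lamc1, -0.050 to 0.083 for Lum, -0.093 to 0.073 for Mmp9 and -0.14 to 0.096 for Timp1. The strict filter, detection on all 12 arrays, dropped 6 tested members, which have no value there. Signal over background limits what the dim proteases can show.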
